A study of Mus musculus with 36 samples.

Results

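The samples examined here were Ikaros cells of B3, a mouse pre-B cell line, in the first hours after 4-hydroxytamoxifen (4-OHT), measured by reduced representation bisulfite sequencing (RRBS), which reads CpG methylation in the CG-rich part of the genome. They were chosen by their labels: the 6 Ikaros samples taken at 2 and 6 h were set against the 3 Ikaros samples taken at 0 h, so that 9 of the 36 samples of the series were used. Ikaros cells carry an MSCV retrovirus that encodes haemagglutinin-tagged Ikaros fused to the ERt2 hormone-binding domain, followed by IRES and GFP, and Control cells carry the ERt2 vector without Ikaros. Transduced cells were sorted for GFP, the fusion protein is made from the viral promoter in addition to the cells' own Ikaros, and all samples come from this 1 cell line. The study's methods give 0.5 uM 4-OHT for the later time points and none at 0 h, whereas the labels name 4-OHT for every sample, and the 0 h cells were obtained separately. Each time point has 3 replicates, from batches 1, 2 and 4 at 0 h and from batches 1, 3 and 4 at 2 and 6 h. By the study's methods, each batch is a repeat of the time course made as a biological replicate, and the 0 h cells came from 3 batches.

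Ikaros, encoded by Ikzf1, is a zinc finger transcription factor of the lymphoid lineage that binds DNA around the core TGGGAA and acts in part through the NuRD chromatin remodelling complex, and its entry into the nucleus moves pre-B cells out of the cell cycle toward the small pre-B stage. A methylated CpG is kept through replication by the maintenance enzyme Dnmt1. It can be lost passively, when a new strand is not methylated, or actively, through oxidation by the Tet enzymes, and it can be gained through Dnmt3a and Dnmt3b. Samples taken within a few hours of 4-OHT leave little time for dilution by division, although division was not measured in these data. Most CpG islands at promoters are free of methylation, most other CpGs of a differentiated cell are methylated, and imprinted control regions carry methylation on a single parental copy.

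The deposited level is a smoothed fraction of methylated reads at each position, given here in percent. Listed positions at most 100 bp apart were joined into 18009 CpG clusters of at least 20 positions, and the level of a cluster was its mean over the positions with a value in all 9 samples. There were 1092503 such positions among 1116417 listed, and 17968 clusters had a value, while 41 had none. A difference is given in percentage points as 2 and 6 h minus 0 h. The tables hold no read counts, so the depth behind a level is unknown and the spread between replicates is the only measure of precision. Positions without a value made up from 0.155 to 0.717% of a sample among these 9. Values at exactly 0 or 100% made up 45.0, 35.0 and 39.3% in the 3 samples at 0 h against 28.5 to 35.8% in the 6 early samples. The part of this difference in the results below was not tested, apart from a fit with that share as a covariate.

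The sequences of 6 clusters described below, none of which passed in limma, are shown first, with every CG in capitals. They are the forward strand of GRCm38. Bcor and Kpna4 stand among the smallest p-values of the comparison, Lhx1 and Icam4 had the widest differences among the 10 smallest p-values, and 2810429I04Rik and Hs3st3b1 had wide differences at intermediate levels with no overlap between the groups. Windows longer than 300 bases were limited to the central 300.
Kpna4, chr3:69127213-69127512, upstream of the start: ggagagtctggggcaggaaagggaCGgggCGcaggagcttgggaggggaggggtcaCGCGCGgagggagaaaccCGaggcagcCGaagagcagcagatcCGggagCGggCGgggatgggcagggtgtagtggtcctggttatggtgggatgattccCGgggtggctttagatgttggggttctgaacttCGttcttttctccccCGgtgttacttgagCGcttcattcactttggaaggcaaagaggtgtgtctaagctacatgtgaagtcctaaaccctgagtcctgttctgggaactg
Bcor, chrX:12158426-12158607, intron: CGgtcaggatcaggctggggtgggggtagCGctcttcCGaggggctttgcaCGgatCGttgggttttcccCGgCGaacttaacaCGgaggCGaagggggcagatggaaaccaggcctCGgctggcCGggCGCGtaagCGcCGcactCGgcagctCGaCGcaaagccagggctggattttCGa
Lhx1, chr11:84522897-84523196, intron: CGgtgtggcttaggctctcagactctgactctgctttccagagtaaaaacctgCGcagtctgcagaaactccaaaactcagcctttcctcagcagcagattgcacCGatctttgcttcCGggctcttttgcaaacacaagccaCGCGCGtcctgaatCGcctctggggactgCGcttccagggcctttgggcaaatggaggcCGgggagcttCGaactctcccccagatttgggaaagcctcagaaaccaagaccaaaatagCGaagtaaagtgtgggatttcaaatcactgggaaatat
Icam4, chr9:21029691-21029990, overlapping a coding exon: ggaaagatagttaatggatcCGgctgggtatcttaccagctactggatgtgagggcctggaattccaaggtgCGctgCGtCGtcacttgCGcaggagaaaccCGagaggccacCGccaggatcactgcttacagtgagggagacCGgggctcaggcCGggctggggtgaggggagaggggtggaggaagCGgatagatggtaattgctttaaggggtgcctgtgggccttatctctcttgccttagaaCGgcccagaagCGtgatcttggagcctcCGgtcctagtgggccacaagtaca
2810429I04Rik, chr13:3478279-3478578, overlapping a non-coding exon: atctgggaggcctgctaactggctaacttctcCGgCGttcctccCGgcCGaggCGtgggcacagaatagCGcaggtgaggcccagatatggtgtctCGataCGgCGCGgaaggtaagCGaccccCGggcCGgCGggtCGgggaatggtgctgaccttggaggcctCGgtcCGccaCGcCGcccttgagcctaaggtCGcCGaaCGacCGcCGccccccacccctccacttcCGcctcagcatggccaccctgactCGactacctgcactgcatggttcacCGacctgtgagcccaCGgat
Hs3st3b1, chr11:63920455-63920682, intron: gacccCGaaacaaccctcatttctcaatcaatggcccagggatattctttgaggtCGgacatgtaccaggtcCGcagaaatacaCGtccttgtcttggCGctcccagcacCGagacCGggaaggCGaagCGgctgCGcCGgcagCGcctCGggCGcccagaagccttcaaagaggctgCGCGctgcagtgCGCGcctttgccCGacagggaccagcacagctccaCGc
These windows hold from 12 (Lhx1) to 28 (2810429I04Rik) CG dinucleotides. The Lhx1 window holds 2 matches to TGGGAA or its complement and the Kpna4 window 1, and the other 4 windows hold none.

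Across all clusters the mean methylation level of the Ikaros cells was 47.3% at each of 0, 2 and 6 h, with an SD of 0.218 points at 0 h, 0.155 at 2 h and 0.148 at 6 h (n = 3 each). The difference of the early samples was 0.0212 points (two-sided exact permutation test over 84 assignments, p = 0.821, adjusted p = 1.00 over the 11 sets described here). With 6 samples against 3 the smallest p this test can give is 0.0119. No direction was therefore seen in the average level within 6 h.

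The clusters were then grouped by starting level, using their mean in the 18 Control samples, which take no part in the comparison. In 96.4% of clusters this gave the same group as the 0 h Ikaros samples would. The landscape had the usual form with 2 ends, since 8478 clusters lay under 10% and 7354 at 90% or over, while 265, 912 and 959 lay at 10 to 25%, 25 to 75% and 75 to 90%.

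Among the unmethylated clusters under 10%, the mean was 0.866, 0.848 and 0.933% in the 3 samples at 0 h, 0.788, 1.15 and 0.900% at 2 h and 0.995, 0.874 and 0.818% at 6 h. The early samples enclosed the 0 h samples, and the difference was 0.0378 points (exact permutation p = 0.702). Fully methylated clusters at 90% or over gave 95.8, 95.9 and 96.2% at 0 h, 95.9, 96.1 and 96.0% at 2 h and 96.2, 96.0 and 95.8% at 6 h, a difference of 0.0515 points (exact permutation p = 0.690). Both ends of the scale therefore stayed within the spread of the replicates.

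The middle of the scale, where a cluster has most room to move either way, gave 51.1, 52.6 and 54.6% at 0 h, 52.1, 53.2 and 51.6% at 2 h and 52.7, 52.0 and 52.7% at 6 h for the clusters at 25 to 75%. The 0 h samples spanned the widest range there, and all 6 early samples lay inside it. The difference of -0.381 points was smaller than the SD of 1.73 between the 0 h replicates (exact permutation p = 0.631). Clusters at 10 to 25% differed by -0.0273 points (exact permutation p = 0.964) and those at 75 to 90% by 0.0380 points (exact permutation p = 0.798). All adjusted p-values of these sets were 1.00.

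**Figure D1:**
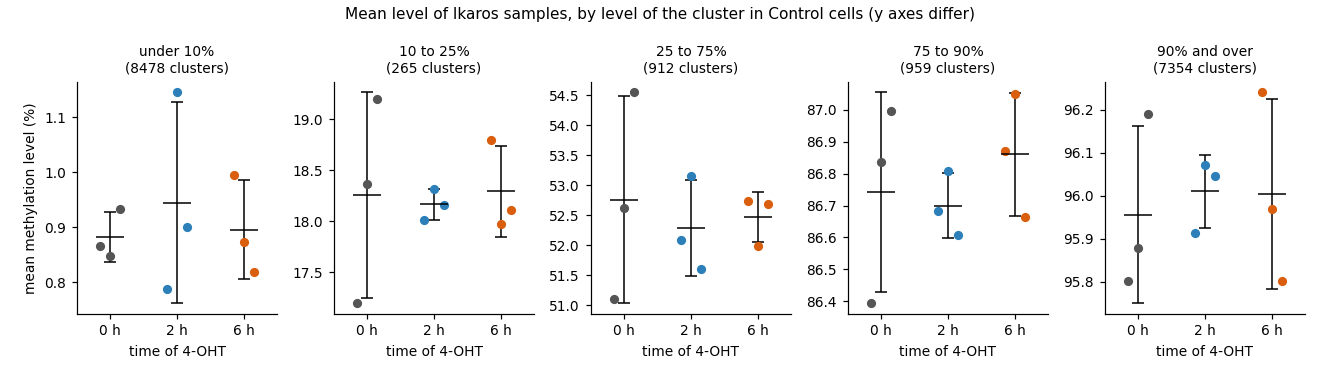
Mean methylation level (%, y axis, scaled separately in each panel) of the Ikaros samples at 0, 2 and 6 h of 4-OHT for clusters grouped by their level in Control cells; points are samples, horizontal lines are means and bars are SD of 3 replicates. In the middle panel the 0 h samples run from 51.1 to 54.6% and all 6 early samples lie between 51.6 and 53.2%.

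Gene context was taken from GENCODE M21, and 13792 clusters lay within 1000 bp of the start of a protein-coding gene, 780 near the start of another gene, 1569 in other exons, 619 in introns and 1208 between genes. Promoter clusters of protein-coding genes were mostly unmethylated, 7981 of them (57.9%) under 10% and 4511 (32.7%) at 90% or over. Exon clusters outside promoters were mostly methylated, with 81.5% at 90% or over. The mean of the protein-coding promoters was 37.2, 37.4 and 37.6% at 0 h, 37.3, 37.6 and 37.4% at 2 h and 37.6, 37.4 and 37.3% at 6 h, which differed by 0.00225 points (exact permutation p = 1.00). The differences were 0.0197 points near other starts (exact permutation p = 0.833), 0.0972 in exons (p = 0.524), 0.0788 in introns (p = 0.679) and 0.110 between genes (p = 0.512). None of the 5 contexts stood outside the replicate spread.

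Batches 1 and 4 hold both 0 h and early samples and gave opposite directions. In batch 1 the early samples were 0.230 points above the 0 h sample over all clusters, and in batch 4 they were 0.301 points below it. For the clusters at 25 to 75% the differences were 1.31 and -2.41 points, and the sign was opposite in all 11 sets. Across the 17968 clusters the difference in batch 1 and the difference in batch 4, which share no sample, had Pearson's r of -0.00380, given as a description because clusters are not independent replicates. Of 1330 clusters that differed by 5 points or more in batch 1, 623 (46.8%) had the same sign in batch 4. Batch 2 holds a 0 h sample and no early sample, and batch 3 the reverse, so batch and time cannot be told apart in those.

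Cluster by cluster, limma made no call. Of 17968 clusters tested for 2 and 6 h against 0 h, 0 (0%) passed an adjusted p of 0.05 in limma, 944 (5.25%) had an unadjusted p under 0.05 (450 higher, 494 lower), and the smallest adjusted p was 0.623. The contrasts of single times, which share the 0 h samples, gave 0 calls (0%) each, with 893 unadjusted at 2 h and 832 at 6 h. Between 6 h and 2 h, where the 0 h samples enter only through the shared estimate of the spread, limma again called 0 clusters (0%), with 666 unadjusted. In all, 478 clusters (2.66% of those tested) had early and 0 h samples that did not overlap, 234 of them higher (1.3%) and 244 lower (1.36%).

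A few clusters passed when a library was left out or the values were changed, and they were named after their values were seen. Without 0 h replicate 2 limma called 3 clusters (Washc3, Gcnt1 and Cbln4), without 0 h replicate 3 it called 4 (Ppp1r2, Gjd2, the start shared by Asphd1 and Sez6l2, and an intergenic cluster nearest to Otx1), and without 2 h replicate 3 it called 1 (Pgs1). In these the replicate left out was the sample that lay nearest to the other group or farthest from its own. With M-values in place of levels limma called 1 cluster, the promoter of Jmjd4 and Snap47 (adjusted p = 0.00563). Its level was at most 1.01% in the 9 samples. M-values come from levels limited to 0.01 to 0.99, so these levels lay near or below the lower limit. With single positions in place of clusters limma called 19 of 1092503, 4 higher and 15 lower, with 51052 at an unadjusted p under 0.05.

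Differences were wider away from the ends of the scale, and so was their error. The median size of the difference was 0.206 points under 10%, 1.48 at 10 to 25%, 3.01 at 25 to 75%, 1.48 at 75 to 90% and 0.739 at 90% or over. The median half-width of the 95% interval of a difference (limma) was 0.567, 4.30, 9.17, 3.88 and 2.13 points in the same order. Changes of 5 points in either direction lay outside the 95% interval in 14872 clusters (82.8%). This share was 97.4% under 10% and 3.18% at 25 to 75%. Under 10% the median level at 0 h was 0.351%, and a cluster at that level could not fall by 5 points. The small spread near 0 is therefore not a sign of precision, and depth is unknown. At intermediate levels the intervals left room for sizeable change. Observed differences of 5 points or more were found in 473 clusters, 240 higher and 233 lower, and 289 of them had a level of 25 to 75%. Of the 473, 48 had groups that did not overlap, 27 higher and 21 lower, beside 2.66% of all clusters. The 473 were chosen by the size of this same difference, so the count of 48 is no separate support. Unmethylated protein-coding promoters had a median size of 0.203 points, and 26 of 7981 differed by 5 points or more.

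**Figure D2:**
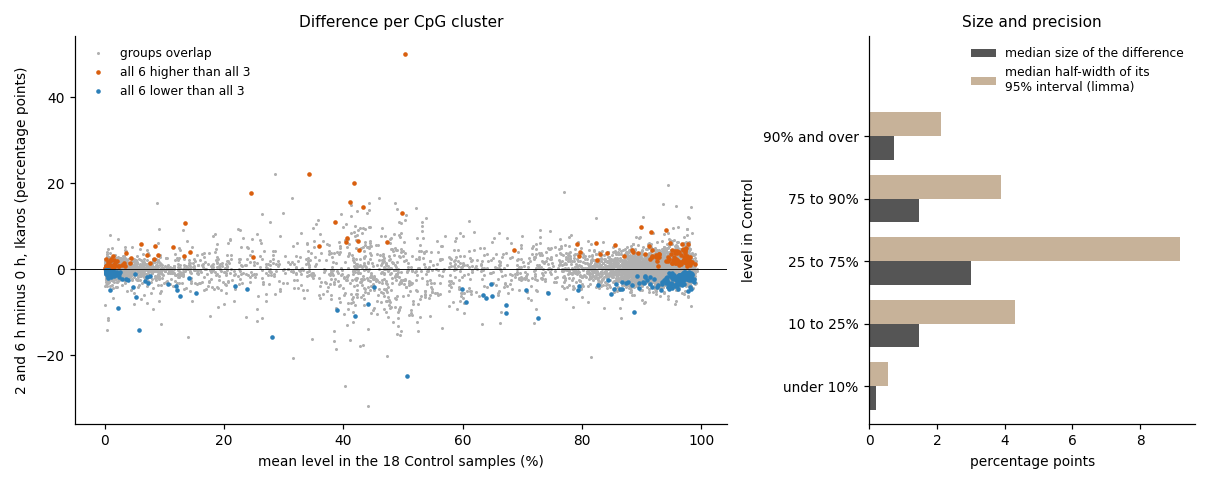
Left, the difference in methylation of Ikaros cells (2 and 6 h minus 0 h, percentage points) of each of 17968 clusters against its mean level in the 18 Control samples (%); coloured points are clusters in which all 6 early samples were above or below all 3 samples at 0 h. Right, bars give the median size of the difference and the median half-width of its 95% interval for each level group; the half-width exceeds the median difference in all 5 groups.

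The 10 clusters with the smallest p-values in limma are described although none passed, and they were chosen by these values. Counts of positions within a cluster are a description, since smoothing makes neighbouring positions share reads. In all 10 the groups did not overlap, with the early samples lower in 7 and higher in 3. Of the 7 lower ones, 5 were promoters that were nearly free of methylation already at 0 h.

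Parp4, which encodes the poly(ADP-ribose) polymerase of vault particles, had 2.21, 2.05 and 1.95% at 0 h, 0.395, 1.29 and 0.839% at 2 h and 0.661, 0.810 and 0.605% at 6 h over 33 positions at chr14:56575589-56575870, in the UTR of its starting exon and near the start of Cenpj. All early samples lay below the 0 h samples, with a difference of -1.30 points (95% interval -1.74 to -0.862, limma adjusted p = 0.623). A lower mean was found at 32 of the 33 positions, and 14 of the 33 had groups that did not overlap. Kpna4, a nuclear import receptor of the importin alpha family, had 2.80, 1.91 and 1.56% at 0 h, 0.457, 0 and 0% at 2 h and 0.837, 0.153 and 0.203% at 6 h at chr3:69127171-69127555, 58 bp from its start. Of its 22 positions, 16 were lower and 6 higher, the median difference was -0.0572 points and the lowest -6.81. The Aebp2 promoter (a cofactor of the Polycomb complex PRC2; chr6:140623263-140623520), with 1.96, 1.47 and 3.21% at 0 h, was at 0% in 4 of the 6 early samples and reached 0.980% in 6 h replicate 3. There the lowest difference of a single position was -61.3 points, while the median over 34 positions was -0.0232. The cluster difference was -2.01 points over these positions and -0.0520 over those that also had a value in the 9 Control samples of 0, 2 and 6 h. The promoter shared by Eme2, a partner of the Mus81 nuclease, and Mrps34, a mitochondrial ribosomal protein (chr17:24895044-24895287), had 1.15, 0.902 and 1.20% at 0 h and at most 0.439% in the early samples. The promoter shared by Jmjd4 and Snap47 (chr11:59449899-59450153) had 1.01, 0.574 and 0.836% at 0 h and 0% in all early samples except 2 h replicate 2, at 0.392%.
In the 9 Ikaros samples of 12, 18 and 24 h the Parp4 cluster ranged from 0 to 2.00%, Kpna4 from 0 to 3.30%, Aebp2 from 0 to 1.95%, Eme2 from 0 to 1.29% and Jmjd4 from 0 to 0.766%. Each of these later ranges overlapped both the 0 h and the early values. In Control cells the Jmjd4 cluster had 7.15% in 0 h replicate 2, above every Ikaros sample, and 0% in the other Control samples at 0 h.

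Lhx1, a LIM homeobox transcription factor of the embryonic head and kidney, had the widest difference of the 10. Its intronic cluster, 146 bp from a start at chr11:84522857-84523237, had 91.3, 84.3 and 83.7% at 0 h, 72.1, 74.6 and 76.6% at 2 h and 76.2, 77.4 and 73.3% at 6 h. The means were 86.4% ± 4.24 (SD, n = 3) and 75.04% ± 2.07 (SD, n = 6), a difference of -11.4 points (95% interval -16.0 to -6.86, limma adjusted p = 0.841). Of 28 positions 27 were lower, and 0 of the 28 had groups that did not overlap. The later Ikaros samples ranged from 53.7 to 92.4%, wider than either group. Control cells had 74.4% ± 8.58 (SD, n = 3) at 0 h and 67.4% ± 7.26 (SD, n = 6) early, and the change in Ikaros minus that in Control was -3.83 points with a standard error of 6.06 (limma adjusted p = 0.909). Icam4, an adhesion molecule of red cells, had 92.0, 88.4 and 89.9% at 0 h, 84.2, 85.1 and 86.1% at 2 h and 82.6, 83.97 and 83.4% at 6 h at chr9:21029547-21030135, a difference of -5.87 points, or -3.89 over the positions complete in Control cells too. Its positions were mixed, 24 lower and 13 higher. Control cells had 85.9% ± 6.87 (SD, n = 3) at 0 h and 83.3% ± 1.21 (SD, n = 6) early. There the change in Ikaros minus that in Control was -2.45 points with a standard error of 2.46 (limma adjusted p = 0.864).

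The 3 clusters with higher early samples were already methylated at 0 h. Bcor, the BCL6 corepressor, had 93.6, 93.6 and 93.5% at 0 h, 97.1, 96.1 and 98.3% at 2 h and 97.3, 96.8 and 98.5% at 6 h in an intronic cluster 1740 bp from its start, at chrX:12158426-12158606. The SD of the 0 h replicates was 0.0446 points, and the difference was 3.77 points (95% interval 2.40 to 5.14, limma adjusted p = 0.623). All 29 positions had a higher early mean, and 0 of them had groups that did not overlap. In the later Ikaros samples the range was 82.7 to 97.9%, which is far wider than the 0 h spread. A cluster in a coding exon of Zbtb32, a zinc finger repressor of lymphocytes, lies 601 bp from the microRNA gene Mir3569 (chr7:30589981-30590274). It had 92.5, 94.0 and 92.7% at 0 h, 96.6, 96.1 and 95.8% at 2 h and 96.8, 97.7 and 96.4% at 6 h. All 20 positions were higher, 6 of them with no overlap. Tnfrsf10b, a death receptor for TRAIL, had 89.6, 89.7 and 88.8% at 0 h and from 91.9 to 93.4% in the early samples at chr14:69767395-69767830. There 33 of 37 positions were higher, and 7 of the 37 had no overlap.

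**Figure D3:**
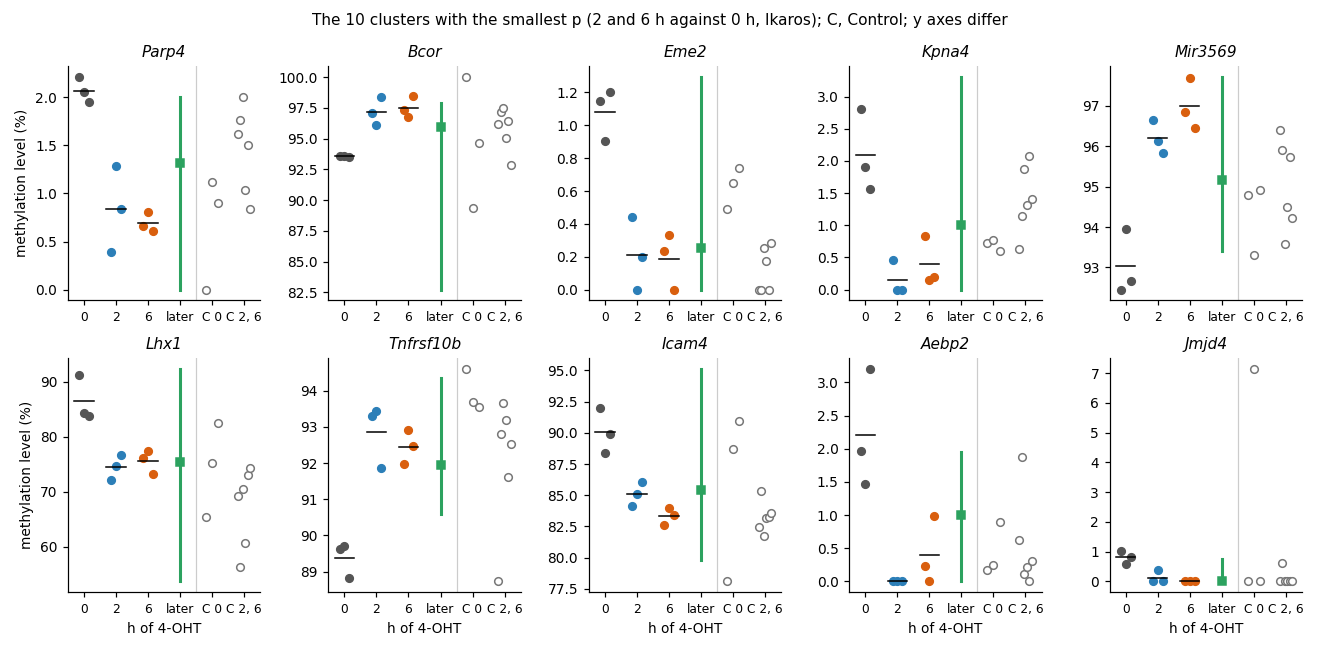
Methylation level (%, y axis, scaled separately in each panel) of the 10 clusters with the smallest p by h of 4-OHT; filled points are Ikaros samples with the mean as a line, the green bar is the range and the square the median of the Ikaros samples at 12 to 24 h, and open points are Control samples (C) at 0 h and at 2 and 6 h. In Lhx1 all 6 early samples lie below the lowest 0 h sample of 83.7%, while the later samples span 53.7 to 92.4%.

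At intermediate levels the replicates themselves lay far apart. The 3 widest differences in each direction among clusters of 10 to 90% were chosen by their size and are given as a description. The cluster at the start of Slc17a7, a vesicular glutamate transporter (chr7:45163944-45164068), had 0, 39.3 and 27.5% at 0 h, 97.6, 64.8 and 100% at 2 h and 44.1, 66.9 and 61.2% at 6 h. Its difference of 50.2 points had a 95% interval of 19.2 to 81.1, and the later Ikaros samples, at 33.7 to 71.0%, overlapped both groups. Hs3st3b1, a heparan sulfate sulfotransferase (intron, chr11:63920455-63920681), had 25.9, 29.2 and 2.38% at 0 h, 45.8, 32.9 and 37.99% at 2 h and 29.6, 48.5 and 53.3% at 6 h. The highest 0 h sample, at 29.2%, and the lowest early sample, at 29.6%, were nearly equal there.
The gene 2810429I04Rik, which has no protein product in the annotation, was the lower cluster of these in which the groups did not overlap. Its start, at chr13:3478259-3478600, had 82.4, 67.1 and 61.9% at 0 h, 53.2, 40.4 and 46.4% at 2 h and 47.4, 43.8 and 42.2% at 6 h. All 34 positions were lower, 28 of them with no overlap, and the difference was -24.9 points (95% interval -35.9 to -13.9, limma adjusted p = 0.841). Control cells had 46.7% ± 1.44 (SD, n = 3) at 0 h and 47.3% ± 7.62 (SD, n = 6) early, so that the early Ikaros samples lay at the Control level and the 0 h Ikaros samples above it. The difference between the changes was -25.5 points with a standard error of 6.92 (limma adjusted p = 0.667), and the later Ikaros samples ranged from 42.8 to 70.8%.
Riox2, a ribosomal oxygenase, had 17.8, 82.1 and 88.9% at 0 h and 15.2 to 45.2% in the early samples (chr16:59472020-59472224). Casd1, an acetyltransferase of sialic acid, had 35.0, 68.7 and 100% at 0 h and 27.6 to 50% early (chr6:4601351-4601507). The intergenic cluster nearest to Gm43909 had 5.46, 39.6 and 0% at 0 h and 13.0 to 62.2% early (chr6:145855765-145855932). In each of these 3 the groups overlapped and a 0 h replicate lay with the early samples, and the 0 h SD ran from 21.5 to 39.2 points. With a sample left out the difference ran from -54.5 to -18.9 points at Riox2, from -43.6 to -11.1 at Casd1 and from 14.6 to 34.4 at the cluster near Gm43909, each end without a 0 h replicate, and it was 13.8 at Hs3st3b1 without 0 h replicate 3.

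**Figure D4:**
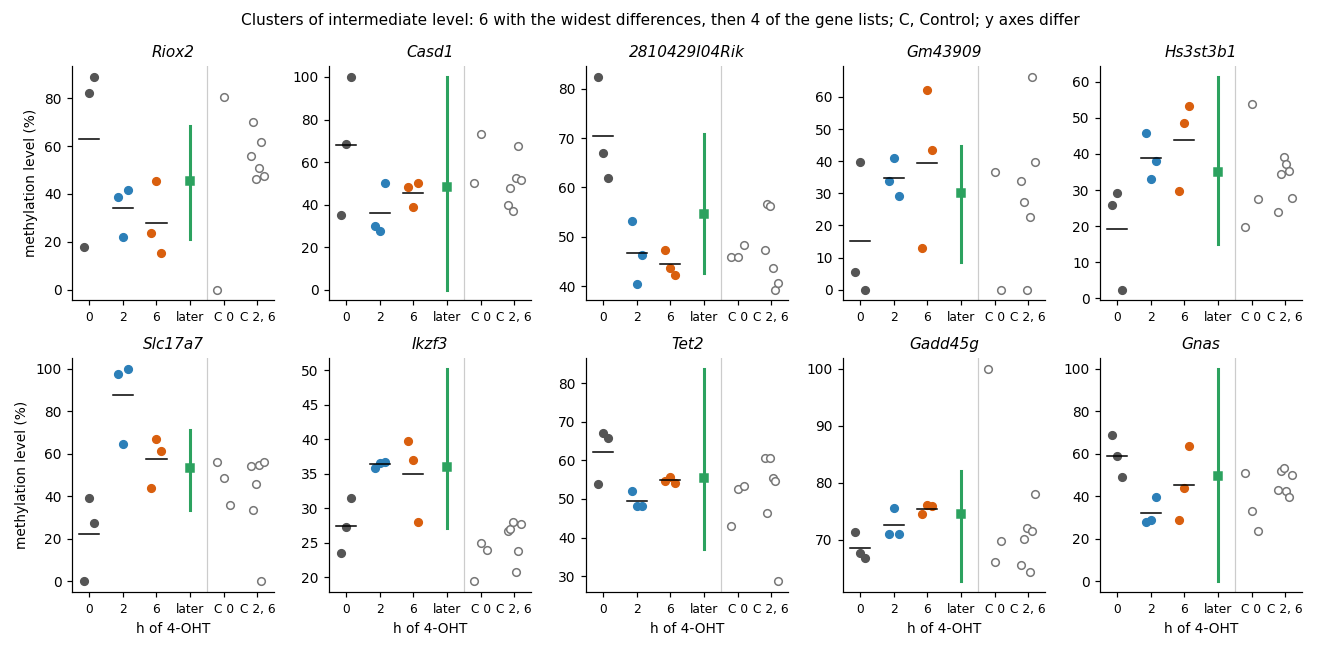
Methylation level (%, y axis, scaled separately in each panel) of 10 clusters of intermediate level by h of 4-OHT, with symbols as in the plot of the 10 smallest p-values: filled points and mean lines for Ikaros samples, green for the range and median at 12 to 24 h, open points for Control (C). In Slc17a7 the 0 h samples reach 39.3% and the early samples start at 44.1%, whereas in Riox2 a 0 h sample at 17.8% lies among the early ones.

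The change in Ikaros cells was compared with the change in Control cells, which received 4-OHT without the Ikaros fusion, over the 16973 clusters with positions complete in these 18 samples. limma called 0 clusters (0%), with 976 at an unadjusted p under 0.05 and a smallest adjusted p of 0.340. That smallest value was Kpna4, where the difference in Ikaros cells was -1.82 points while Control cells had 0.702% ± 0.0888 (SD, n = 3) at 0 h and 1.41% ± 0.516 (SD, n = 6) early, a difference of -2.52 points with a standard error of 0.427. Parp4 was next, at -2.09 points with a standard error of 0.390 (limma adjusted p = 0.488). Col5a1, a fibrillar collagen chain, had a difference of 3.22 points, with 95.9 and 97.7% in Ikaros cells and 97.9 and 96.5% in Control cells (limma adjusted p = 0.488). For Il27ra, a cytokine receptor chain, the difference of 2.40 points was made of 0.498 points in Ikaros and -1.90 in Control cells over the positions complete in the 18 samples, whereas over the positions complete in the 9 Ikaros samples the Ikaros difference had the opposite sign, at -0.857 points. Bcl11b, a transcription factor of the T lineage, gave -4.12 points in a coding exon, and there the Control means were 93.8 and 97.2%, against 97.0 and 96.3% in Ikaros cells. Control 0 h replicate 1 lacked 11.6% of the positions, and the 3 Control samples at 0 h lacked from 0.362 to 11.6%.
The call count of this comparison depended on single 0 h libraries of the Control cells. Without Control 0 h replicate 2 limma called 11 clusters, 3 with a higher and 8 with a lower change in Ikaros than in Control cells. The difference was -59.2 points at Mapk4 (adjusted p = 7.17e-07 in limma), -47.5 at Dusp4, 41.9 at Hlcs and 2.88 at Il27ra. Without Control 0 h replicate 1 it called 5, among them clusters near Trp53, Smc5, Hoxaas2 and Cbln1, and without Control 0 h replicate 3 it called 1, near Mapkapk2. Without Ikaros 0 h replicate 3 the intergenic cluster nearest to Otx1 was called, and without Ikaros 2 h replicate 3 Pgs1 was called. Within batches 1 and 4, which also leaves out Control 0 h replicate 2, it called 2, near Hlcs and Mapk4. These clusters were named after their values were seen.

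Named gene groups were read from the clusters within 1000 bp of a start of each member, and limma called no member of any group. The genes by which the study followed the response of this cell line come first. Of 7, 6 had such clusters, 8 in number, and all 8 lay under 10% at 0 h (Igll1, a part of the surrogate light chain, had none). Their differences ran from -0.298 to 0.208 points with a median of 0.0574, against a median of 0.0493 over all clusters. Myc, which drives proliferation and growth, had 0.780, 0.144 and 0.158% at 0 h, 0.554, 0.572 and 0.576% at 2 h and 0.320, 0.524 and 0.865% at 6 h. The groups overlapped, and the difference of 0.208 points had a 95% interval of -0.196 to 0.612. It was 0.0992 points without 0 h replicate 2, 0.107 without 0 h replicate 3 and 0.417 without 0 h replicate 1, and 0.562 over the positions complete in Control cells too.
The metabolic targets gave the same picture of promoters without methylation. Hk2, the inducible hexokinase, had 1.00% at 0 h and 1.00% early, with a 95% interval of the difference of -0.543 to 0.539 points. Slc7a5, a transporter of large amino acids, had 0.193 and 0.256%, and Ldha, lactate dehydrogenase A, 0.0881 and 0.214%. The DNA ligase Lig4 had 0% in all samples at 0 h and in 5 of 6 early ones in 1 cluster, and 0.295 and 0.158% in the other. Foxo1, a transcription factor of pre-B differentiation, had 0.933 and 0.635% upstream of its start and 0.671 and 0.723% over its starting exon. The upstream difference of -0.298 points had the opposite sign, at 0.0514, over the positions complete in Control cells too, and so did that of Hk2, at -0.00187 and 0.0624 points. For these genes the promoter was unmethylated before 4-OHT, and the upper bounds of the 95% intervals of their 8 clusters lay between 0.148 and 0.852 points.

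Of the Ikaros family, 4 of 5 genes had clusters, 6 in number, with 1 unadjusted p under 0.05 (5.25% of all clusters) and no cluster without overlap (2.66% of all clusters). Ikzf3, which encodes Aiolos, gave that value: its promoter and starting exon (chr11:98545724-98546059, 81 positions) had 23.5, 27.4 and 31.6% at 0 h, 35.8, 36.6 and 36.7% at 2 h and 39.7, 37.0 and 28.04% at 6 h. The 2 h samples lay above all 0 h samples and 6 h replicate 3 lay among them, and the difference was 8.16 points (95% interval 1.04 to 15.3, limma adjusted p = 0.871). Control cells had 22.8% ± 2.97 (SD, n = 3) at 0 h and 25.7% ± 2.83 (SD, n = 6) early, and the later Ikaros samples 27.1 to 50.2%. The 3 clusters near the upstream start of Ikzf1 were at 97.6 to 98.9% at 0 h, and the widest of their differences was -0.906 points. With a sample left out it ran from -1.37 to -0.332 points, and that of Ikzf2 from -1.70 to -0.405. The clusters of Ikzf2 (Helios) and Ikzf5 differed by -1.01 and -0.233 points, and Ikzf2 had the opposite sign, at 1.02 points, over the positions complete in Control cells too.

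Of the 19 genes of the B lineage and the pre-B receptor, 5 had clusters, and 7 of 8 clusters lay under 10%. Vpreb1, the partner of Igll1 in the surrogate light chain, had 0.214% at 0 h and 0.251% early. The exception was Syk, the kinase downstream of the pre-B receptor, with 24.6, 24.1 and 25.4% at 0 h, 23.0, 20.8 and 25.5% at 2 h and 19.3, 17.5 and 24.8% at 6 h. The 0 h samples lay within the early range, and the difference was -2.88 points (95% interval -7.50 to 1.74). The kinase Lyn and the surface protein Cd24a differed by at most 0.363 points in any of their clusters. With a sample left out the widest difference ran from 0.0178 to 0.610 points at Lyn and from 0.0804 to 0.445 at Cd24a. All 15 clusters of the B-lineage transcription factors lay under 10%, and their differences ran from -0.501 (Runx1) to 0.480 points (Tcf3, the E2A gene). Runx1 was at -0.126 points without 0 h replicate 2 and at -1.03 without 0 h replicate 1, and Tcf3 at 0.237 without 2 h replicate 2. Tcf3 was the single cluster of the 15 without overlap (2.66% of all clusters), with 0.102, 0 and 0% at 0 h and 0.103 to 1.73% early, where the highest 0 h and the lowest early sample were nearly equal.
As a check of the labelled cell type, only methylation could be read. The clusters of the myeloid factors Cebpa and Cebpb lay at 96.8 to 98.5% at 0 h, and those of Itga2b, a platelet integrin, at 90.7 and 93.0%. Of the T lineage factors, the promoter cluster of Tcf7 lay at 46.8% and the 3 clusters of Gata3 at 99.6, 22.0 and 10.1%. The erythroid factor Klf1 lay at 0.448%, no stromal marker had a cluster, and a low level near a start does not show expression.

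The 34 clusters of 20 cell cycle genes had differences from -4.41 to 3.56 points, with a median of 0.0534 and 1 cluster without overlap, beside 2.66% of all clusters. Both ends of that range belonged to Ccnd1, the gene of cyclin D1. Its exonic cluster at chr7:144937937-144938386 had 6.03, 14.9 and 6.83% at 0 h and 0 to 8.99% early, and its difference was -1.58 points without 0 h replicate 2. The cluster at its start had 43.0% ± 6.48 (SD, n = 3) and 46.6% ± 7.37 (SD, n = 6), and its difference was -0.101 points without 0 h replicate 2. Cdkn1c, an imprinted inhibitor of cyclin-dependent kinases, had 94.8% ± 1.78 (SD, n = 3) at 0 h and 96.9% ± 1.33 (SD, n = 6) early. Of the 24 clusters of 20 genes of glycolysis and nutrient uptake, 21 lay under 10%. They gave 1 unadjusted p under 0.05 and 1 cluster without overlap, beside 5.25 and 2.66% of all clusters. The unadjusted value was at Gapdh, with 0.0799% at 0 h and 0.890% early. The median difference was 0.134 points and the range -1.15 to 2.30. Aldoa, the aldolase of muscle and lymphocytes, gave the upper end in a cluster of 32.5% ± 7.69 (SD, n = 3) at 0 h and 34.8% ± 4.88 (SD, n = 6) early. Pgam1, phosphoglycerate mutase, gave the lower end, and there 0 h replicate 3 at 3.15% stood apart from 0.183 and 0.472% in the other 0 h samples, and without it the difference was -0.205 points.

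Of the enzymes that write, read and erase methylation, 18 of 21 genes had clusters, 30 in number, with 2 unadjusted p-values under 0.05 and no cluster without overlap, beside 5.25 and 2.66% of all clusters. The median difference was 0.00514 points. Tet2, which oxidises 5-methylcytosine, had 54.0, 67.0 and 65.8% at 0 h, 52.0, 48.2 and 48.3% at 2 h and 54.8, 55.6 and 54.2% at 6 h at a start at chr3:133544303-133544985. The difference was -10.1 points (95% interval -18.4 to -1.75, limma adjusted p = 0.871), but -2.55 over the positions complete in Control cells too. The 0 h replicate 1 lay among the early samples, and the Control cells had 49.6% ± 5.79 (SD, n = 3) and 51.1% ± 12.1 (SD, n = 6). Gadd45g, a stress protein linked to demethylation, had 71.4, 67.6 and 66.8% at 0 h, 70.9, 75.6 and 70.9% at 2 h and 74.5, 76.0 and 75.8% at 6 h. Its 6 h samples lay above all 0 h samples, its 2 h samples did not, and the difference was 5.35 points (95% interval 0.938 to 9.77, limma adjusted p = 0.871), or 2.66 over the positions complete in Control cells too. The 26 clusters of the NuRD subunits, all 13 of which had a cluster, differed by -1.38 (Mbd3) to 0.717 points (Gatad2b), with 24 of 26 under 10%. They gave 1 unadjusted p under 0.05, at Rbbp7 (-0.279 points), and 1 cluster without overlap, beside 5.25 and 2.66% of all clusters. Chd3, a helicase of the complex, lay at 98.3% at 0 h and 97.1% early in a coding exon.

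Imprinted genes gave the widest range of the lists, -20.3 to 15.6 points over 34 clusters of 20 genes, with a median of 0.00566 points. An unadjusted p under 0.05 was found in 4 of the 34 (5.25% of all clusters), namely Impact, Plagl1, Nnat and Gnas, and the groups did not overlap in 2 (2.66% of all clusters), Impact, which was higher, and Plagl1, a zinc finger factor, which was lower by value (98.5% at 0 h and 96.4% early). Most of these clusters lay at 90% or over (26), and the 6 at 10 to 90% included those at the level of a single methylated copy. The regions at Kcnq1ot1 and Peg13 had 48.4 and 45.3% at 0 h and 48.9 and 43.7% early. The 2 clusters of intermediate level near starts of Gnas, the gene of a G protein subunit, differed by -20.3 and -7.81 points. The wider, at chr2:174327851-174327988, had 69.0, 59.2 and 49.0% at 0 h, 27.7, 28.9 and 39.5% at 2 h and 28.8, 43.8 and 63.7% at 6 h, so that the 2 h samples lay below and the 6 h samples reached into the 0 h range. Of the 2 clusters of Zrsr1, a splicing factor gene inside Commd1, that at chr11:22972855-22973162 had 72.5% ± 2.92 (SD, n = 3) at 0 h and 63.3% ± 7.39 (SD, n = 6) early, while the other had 95.1 and 96.6%. In the intron of Impact the samples did not overlap, with 20.98, 34.8 and 26.6% at 0 h, 41.4, 39.7 and 39.6% at 2 h and 53.7, 43.6 and 40.5% at 6 h (limma adjusted p = 0.871). Control cells there had 48.1% ± 5.35 (SD, n = 3) at 0 h and 39.8% ± 6.41 (SD, n = 6) early.
Among the T lineage factors, a cluster of 24 positions near a start of Gata3 had 7.21, 31.3 and 27.6% at 0 h and 23.8 to 48.3% early, a difference of 14.9 points with a 95% interval of -0.824 to 30.6. Without 0 h replicate 1, the lowest sample, it was 7.46 points.

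**Figure D5:**
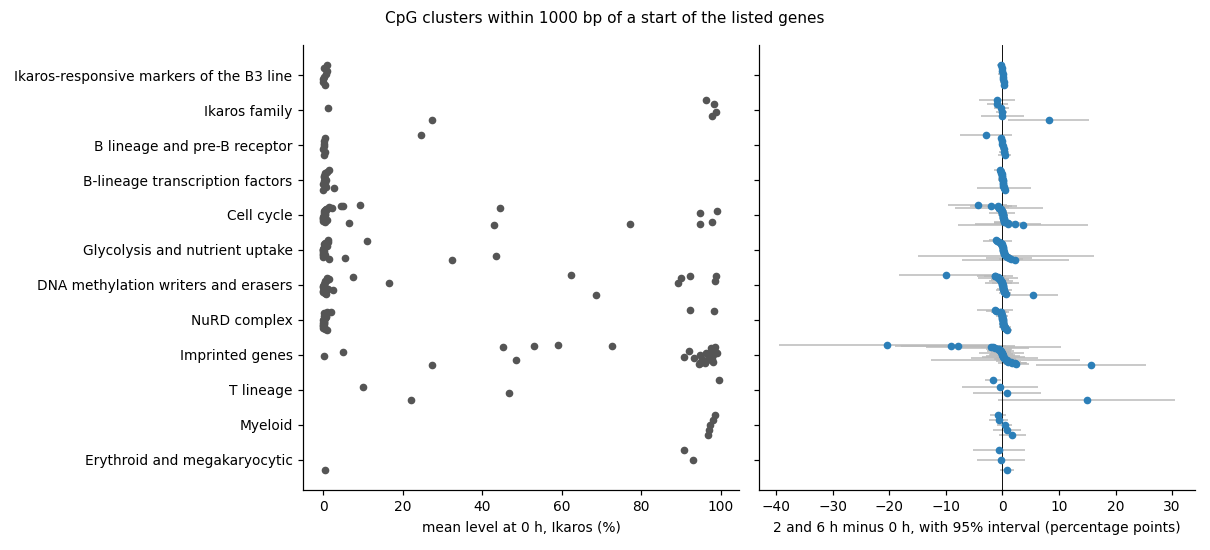
Left, mean level at 0 h (%) and right, difference of 2 and 6 h minus 0 h (percentage points) with its 95% interval from limma, for each CpG cluster near a start of the listed genes in Ikaros cells; each point is a cluster. The clusters of the genes that respond to Ikaros lie under 10% on the left and between -0.298 and 0.208 points on the right, and the widest intervals belong to clusters of intermediate level such as Gnas.

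The core of the Ikaros binding motif was searched as TGGGAA on both strands in the central 300 bp of each cluster. It was present in 2900 of the 17968 windows (16.1%), in 15.3% of those under 10% and 16.4% of those at 90% or over. Clusters with the motif had a median size of the difference of 0.471 points and those without it 0.420, and the groups did not overlap in 3.14 and 2.57% of them, beside 2.66% in all. In the level group of 25 to 75% the median sizes were 2.92 with and 3.06 points without the motif. A match of 6 letters is a description of the sequence and not of binding.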

How the data were processed

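The series holds RRBS of 36 samples. The 9 Ikaros samples of 0, 2 and 6 h were analysed here, with 18 Control samples and the 9 later Ikaros samples as reference. Groups, replicates and batches were taken from the labels. Reads were trimmed and aligned by the authors (Bismark 0.10.1 with Bowtie2, GRCm38), who limited the coverage of sites above the 95% quantile, and smoothed the levels within CpG clusters (BiSeq, bandwidth 80 bp). Smoothing makes neighbouring positions share reads, so that positions within a cluster are not independent. The processing notes of the labels also name CASAVA, FastQC, HTSeq and methylKit. One table deposited by the authors gives smoothed levels per position as a fraction between 0 and 1, printed here as a percent. The other deposited table gives M-values, the log2 ratio of methylated to unmethylated share, from levels limited to 0.01 to 0.99. Neither table holds coverage, so depth is unknown, and no interval for counting error can be given.

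Clusters (gap of at most 100 bp, at least 20 positions) were averaged over positions with a value in all 9 samples, or in all 18 for the comparison with Control. Control and later Ikaros levels of a named cluster are means over those of its positions that have a value in that sample. Means over sets of clusters were compared with two-sided exact permutation tests, and Benjamini-Hochberg adjustment covered the 11 sets. Clusters were fitted with limma 3.58.1 (lmFit and eBayes with trend) in R 4.3.3, with Benjamini-Hochberg adjustment over all clusters. Means and permutations were computed in Python 3.11.15 with scipy 1.17.1, pandas 2.3.3 and numpy 2.4.6. The code was tested on simulated data. Of 22329 positions checked against GRCm38, 22328 lay on a CG.

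The comparison, the gene lists and the rules for names were chosen with earlier results of these data known. Named were the 10 clusters with the smallest p, the 5 with the smallest p in the comparison with Control, the 3 widest differences of each gene list with the markers of the study, and the 3 widest differences in each direction at levels of 10 to 90%. Alternatives were M-values, single positions, other position sets and gaps, no trend, batches 1 and 4, a replicate block, the share of levels at 0 or 100% as a covariate, means over positions, other level groups and promoter windows, and each sample left out. One cluster called with a Control sample left out is not reported here.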

Additional observations from a re-analysis of the deposited data

Results flagged for a closer look

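A sample far from the other 5 early samples was seen in 8 of 69 sets and clusters examined, by Dixon's criterion for 6 samples. Chance meets it in about 1 of 20 groups that are independent and normal. The groups here share the same 6 samples, and some were chosen by their values or hold 0% in the other 5 samples. The rates can therefore not be compared. In 6 h replicate 3, Aebp2 had 0.980% against at most 0.236% in the others, Il27ra had 0.622% against 1.06 to 1.30%, and Ikzf3 had 28.04% against 35.8 to 39.7%. In 6 h replicate 1, the Lig4 cluster at chr8:9976206 had 1.12% against 0% and Impact had 53.7% against 39.6 to 43.6%. In 2 h replicate 2, the promoter of Jmjd4 and Snap47 had 0.392% against 0%, Lyn had 2.33% against at most 0.756%, and Tcf3 had 1.73% against 0.103 to 0.422%. No sample was far from the others in the mean level of any of the 11 sets.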

How the results depend on the processing

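The number of calls in limma stayed at 0 for 2 and 6 h against 0 h with a threshold of 5 points, without the trend, over positions complete in all 36 samples, with positions at most 50 bp apart, within batches 1 and 4 with batch as a block, and with the share of levels at 0 or 100% as a covariate, under which the median difference over clusters was -0.0574 points against 0.0493, and 45.2% of clusters were higher against 54.0%. It was 1 with M-values and 19 with single positions. Over positions complete in all 36 samples there were 2 calls at 2 h against 0 h and 2 at 6 h against 2 h, and within batches 1 and 4 there were 2 in the comparison with Control. The replicate block gave 0 calls in all 5 limma comparisons and changed no other call, with a smallest adjusted p of 0.391 for 2 and 6 h against 0 h. In this block replicates 1 and 3 are batches 1 and 4 at 0, 2 and 6 h, while replicate 2 joins batch 2 at 0 h with batch 3 early. Deviations from the time means correlated at -0.0389 to 0.0311 in the 9 pairs of samples with the same number, so samples with the same number shared little. Leaving out each sample in turn gave 0 to 4 calls for 2 and 6 h against 0 h, 0 to 2 for 2 h against 0 h, 0 for 6 h against 0 h, 0 to 2 for 6 h against 2 h and 0 to 11 in the comparison with Control. The mean differences were near 0 and changed sign with many choices, and no adjusted p of a set passed under any of them. With each sample left out in turn they ran from -0.0735 to 0.140 points over all clusters, from -0.00741 to 0.0642 under 10%, from -0.557 to 0.446 at 10 to 25%, from -1.21 to 0.515 at 25 to 75%, from -0.136 to 0.166 at 75 to 90% and from -0.0261 to 0.168 at 90% or over. The ranges by context were -0.0838 to 0.109 for protein-coding promoters, -0.0699 to 0.169 for other promoters, -0.0383 to 0.224 for exons, -0.0532 to 0.319 for introns and -0.0334 to 0.279 between genes. Positions complete in all 36 samples gave -0.00216 points over all clusters, 0.0239 at 10 to 25%, -0.0627 at 75 to 90%, -0.0103 for protein-coding promoters, -0.0216 for other promoters and -0.00803 between genes. M-values (log2) gave -0.00964 over all clusters, 0.0521 at 10 to 25%, -0.0530 at 75 to 90%, -0.0256 at 90% or over, -0.00575 for protein-coding promoters, -0.0227 for other promoters, -0.0139 for exons, -0.0350 for introns and -0.0271 between genes. Batches 1 and 4 alone gave -0.0357 points over all clusters, -0.0244 under 10%, 0.0709 at 10 to 25%, -0.0558 for protein-coding promoters, -0.0804 for other promoters and -0.0793 for introns, where the smallest p possible is 0.0667. Level groups set by the Ikaros 0 h samples, which enter the comparison, gave 0.488 at 10 to 25% and -0.0660 at 90% or over. Of the named clusters, the promoter of Jmjd4 and Snap47 passed with M-values (-0.27 on the log2 scale), where its levels lay near or below the lower limit of 0.01. With M-values the sign turned at Ikzf2 (0.032), Slc7a5 (-0.065) and Hk2 (0.0016). It turned with a sample left out at Il27ra (-1.47 to 0.188 points), Ccnd1 (-0.101 to 6.07), Aldoa (-1.72 to 5.94), Mbd3 (-2.25 to 0.0194), Cebpa (-1.01 to 1.76), both clusters of Itga2b (-2.78 to 1.87 and -1.47 to 1.42), Slc7a5 (-0.0342 to 0.203), Hk2 (-0.240 to 0.180) and Foxo1 (-0.147 to 0.268). The cause of these changes was not tested. Depth is unknown, and how far it limits each value was not tested.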

Other observations

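Clusters that passed in limma when a library was left out, or over other positions, are given as values, and they were chosen after their values were seen. The promoter of Ppp1r2, an inhibitor of protein phosphatase 1 (chr16:31275038-31275257), had 9.96, 6.60 and 26.8% at 0 h, 0% in 5 of the 6 early samples and 1.19% in 6 h replicate 1. Later Ikaros samples ranged there from 0 to 14.9%. Gcnt1, a glycosyltransferase of mucin-type glycans (chr19:17356353-17356764), had 14.4, 5.10 and 16.8% at 0 h and 2.502 to 6.02% early, and 2.39 to 15.1% later.

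Other clusters had a higher mean at 2 h than at 0 h and at 6 h. Cdc25a, the phosphatase that activates cyclin-dependent kinases (chr9:109876017-109876337), had 0% in all samples at 0 h, 1.88, 8.20 and 0.914% at 2 h and 1.05, 1.62 and 0% at 6 h. Over positions with a value in all 36 samples it was called at 2 h against 0 h (adjusted p = 0.0495 in limma), together with Nptn, a cell adhesion protein, which had 0% at 0 and 6 h and 1.34, 3.15 and 1.05% at 2 h. Over the positions of the main comparison neither was called. Without 2 h replicate 1, Cyth1 and Snd1 were called, and without 2 h replicate 3 the promoter shared by Pet100 and Xab2, with 0.596, 0.667 and 0.521% at 0 h, 4.26, 4.10 and 0.726% at 2 h and 0.459, 0.602 and 0.611% at 6 h. In each of these the replicate left out was the 2 h sample nearest to the other times.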
